A study of Arabidopsis thaliana with 4 samples.

Results

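The plastid ribosomal protein genes described here are rps2, rps4, rps14 and rps18 of the small ribosomal subunit, and rpl14, rpl20, rpl32 and rpl33 of the large subunit. They are 8 genes of the chloroplast genome of Arabidopsis thaliana, and they were chosen by symbol in the platform's probe table, with only the plastid copy of each gene kept. Each gene had 1 probe set, a group of short probes whose brightness is summarised as 1 intensity. These 8 were among the 62 plastid probe sets in the same probe number range and among 22746 gene probe sets on the array. In the gene table their locus tags were ArthCp011 for rps2, ArthCp024 for rps4, ArthCp020 for rps14, ArthCp044 for rps18, ArthCp059 for rpl14, ArthCp045 for rpl20, ArthCp072 for rpl32 and ArthCp043 for rpl33.

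RNA came from whole plants of accession Ws-2 at growth stage 1.06, kept at 23 °C under 16 hours of light per day, and was hybridised to ATH1 arrays. The 4 groups were wild type, wild type given 1 mg per litre bleomycin for 3 days, ku80 plants, and ku80 plants given the same bleomycin treatment. The ku80 plants carried a T-DNA insertion in At1g48050, the gene of KU80, a protein that binds broken DNA ends in non-homologous end joining. Bleomycin is a drug that breaks DNA. Each group had 1 array made from RNA pooled over 20 plants, so no value below has a spread between replicates.

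Chloroplasts keep a ribosome of bacterial type. Its RNAs and part of its proteins are encoded in the plastid genome, and the other proteins are encoded in the nucleus and imported. It makes the plastid-encoded subunits of the photosystems, of the cytochrome b6f complex, of the ATP synthase and of Rubisco. Plastid genes are read as long transcripts over several genes, by a polymerase whose core is plastid-encoded and by a phage-type polymerase encoded in the nucleus.

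Intensities were divided by a scaling factor per array (0.977 to 1.04), and values under a floor of 28.0 were raised to it before taking log2. A probe set above the floor on at least 1 array counted as measured, which held for 15334 probe sets and for all 8 genes, each of which was above the floor on all 4 arrays. The 3′ to 5′ ratio of actin, a sign of RNA integrity, lay between 1.24 and 1.38 on the 4 arrays, and that of ubiquitin was 1.17 untreated and 1.21 treated in wild type, against 1.42 and 1.53 in ku80. The probe tables paired no probe set with KU80, so its transcript could not serve to check the insertion. Labelling was primed with oligo-dT, and most plastid transcripts lack a stable poly(A) tail, so an intensity depends on the amount of a transcript and on how well it was primed. The 25S ribosomal RNA control, another transcript without a poly(A) tail, had scaled intensities of 1499 in wild type, 2049.6 in wild type with bleomycin, 2394 in ku80 and 1782 in ku80 with bleomycin. Priming was not measured separately, and its part in the values below was not tested. Intensities of different probe sets are not compared, because probes differ in binding.

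Among the small-subunit genes, rps2 and rps18 were lower with bleomycin in both genotypes, while rps4 and rps14 varied little, with highest over lowest ratios of 1.26 and 1.12 over the 4 arrays. The protein of rps2 joins the small subunit late in assembly in Escherichia coli. The scaled intensity of rps2 was 615 in wild type, 297 in wild type with bleomycin, 876 in ku80 and 464 in ku80 with bleomycin. Both bleomycin arrays were below both untreated arrays, and within each treatment ku80 was the higher genotype. The log2 difference of rps2 with bleomycin was -1.05 in wild type and -0.92 in ku80, or 2.07-fold and 1.89-fold lower respectively.

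The gene rps18 encodes a protein of the platform of the small subunit, and it is essential in tobacco plastids. Its scaled intensity was 341 in wild type, 156 in wild type with bleomycin, 251 in ku80 and 188 in ku80 with bleomycin. It was the only one of the 8 genes that was brightest in untreated wild type, and both bleomycin arrays lay below both untreated arrays. With bleomycin rps18 was 2.19-fold lower in wild type, and the same comparison in ku80 gave 1.33-fold.

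The protein of rps4 is one of the first to bind the 16S ribosomal RNA in Escherichia coli. The scaled intensity of rps4 was 1296 in wild type, 1445 in wild type with bleomycin, 1627 in ku80 and 1501 in ku80 with bleomycin. The 4 arrays were close to each other, and the untreated ku80 array was the highest. The log2 difference of rps4 with bleomycin was 0.16 in wild type and -0.12 in ku80, and after quantile normalization both signs turned, while after cyclic loess the wild type sign did.

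The protein of rps14 sits in the head of the small subunit. Its scaled intensity was 31.5 in wild type, 33.3 in wild type with bleomycin, 34.9 in ku80 and 31.1 in ku80 with bleomycin. All 4 values were just above the floor of 28.0, so a change in rps14 of the size seen in rps2 could not have been measured downwards.

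Among the large-subunit genes, rpl14 had the widest range over the 4 arrays, rpl20 a narrower one, and rpl32 and rpl33 were low mainly in ku80 with bleomycin. The protein of rpl14 lies at the interface between the subunits in bacteria. The scaled intensity of rpl14 was 413 in wild type, 246 in wild type with bleomycin, 844 in ku80 and 333 in ku80 with bleomycin. The untreated ku80 array stood above the other 3, and both bleomycin arrays were the lowest. With bleomycin rpl14 was 1.67-fold lower in wild type, against 2.53-fold in ku80, and without the drug the ku80 value was 2.04 times that of wild type.

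The protein of rpl20 binds the 23S ribosomal RNA early in large subunit assembly in bacteria, and its gene is essential in tobacco plastids. Its scaled intensity was 217 in wild type, 150.0 in wild type with bleomycin, 334 in ku80 and 218 in ku80 with bleomycin. The untreated ku80 array was the highest and the treated wild type array the lowest, while untreated wild type and treated ku80 were nearly equal. The drug's log2 differences were alike in both genotypes, -0.53 in wild type and -0.61 in ku80.

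The gene rpl32 is also essential in tobacco plastids. Its scaled intensity was 583 in wild type, 537 in wild type with bleomycin, 714 in ku80 and 482 in ku80 with bleomycin. In wild type the treated and untreated arrays were close, with a log2 difference of -0.12, and in ku80 the treated array was 1.48-fold lower.

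The gene rpl33 can be lost in tobacco without harm under standard growth, but its loss slows recovery from cold. Its scaled intensity was 1051 in wild type, 1109 in wild type with bleomycin, 1257 in ku80 and 820.1 in ku80 with bleomycin. The treated ku80 array stood below the other 3. The log2 difference of rpl33 with bleomycin was -0.62 in ku80 and 0.08 in wild type, and the wild type sign turned after quantile and after cyclic loess normalization.

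**Figure D1:**
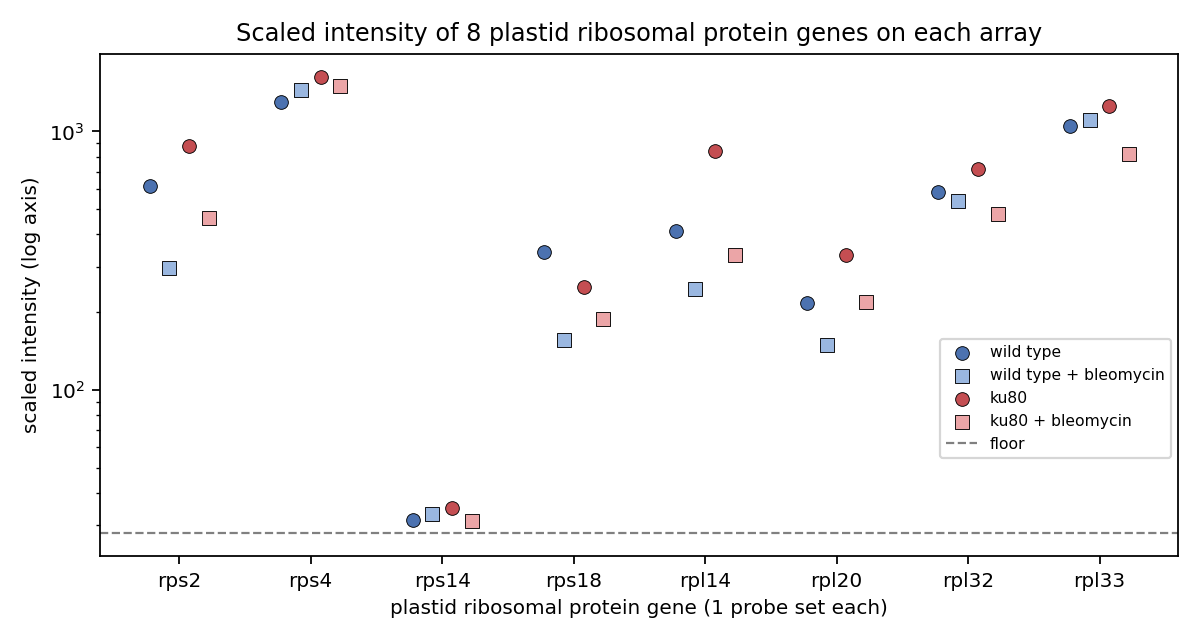
Scaled intensity (log axis) of the 8 plastid ribosomal protein genes, each point 1 array, with the floor of 28.0 as a dashed line. The untreated ku80 array is the highest for 7 of the 8 genes, rps18 being the exception, and the 4 values of rps14 lie just above the floor.

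The untreated ku80 array was the highest of the 4 for 7 of the 8 genes, against 18.1% of all measured probe sets. Other plastid genes also had this order, since 31 of 47 measured plastid genes in the same probe number range that do not encode ribosomal proteins (66.0%) were highest on that array. The lowest array was treated wild type for rps2, rps18, rpl14 and rpl20, treated ku80 for rps14, rpl32 and rpl33, and untreated wild type for rps4. Summed over the 8 genes, the scaled intensity was 4548 in wild type, 3974 in wild type with bleomycin, 5937 in ku80 and 4037 in ku80 with bleomycin. In RNA from whole plants, fewer plastid-rich cells and less plastid RNA per cell cannot be told apart.

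The first comparison asked how plants responded to bleomycin in each genotype. In wild type the difference was below 0 for 5 of the 8 genes, against 49.6% of all measured probe sets, and the median log2 difference was -0.33, against 0.00 for all measured probe sets. The count below 0 was 7 of 8 after quantile or cyclic loess normalization. At least 2-fold lower in wild type were rps2 and rps18, 2 of the 8 genes, against 8.39% of measured probe sets, and none was 2-fold higher, against 5.50%. In ku80 all 8 genes were below 0, against 48.4% of measured probe sets, and 7 of 8 were after quantile normalization, in which rps4 was the exception. The median log2 difference in ku80 was -0.59, and 1 gene, rpl14, was at least 2-fold lower, against 5.61% of measured probe sets, with none 2-fold higher, against 2.49%. At a threshold of 1.5-fold, 3 of the 8 were lower with bleomycin in wild type, against 19.3%, and 4 in ku80, against 13.5%.

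The responses were spread widely within the set. In wild type they ran from -1.13 for rps18 to 0.16 for rps4 on the log2 scale, with an SD over the 8 genes of 0.53, and in ku80 from -1.34 for rpl14 to -0.12 for rps4, with an SD of 0.40. The drug difference was below 0 in both genotypes for rps2, rps18, rpl14, rpl20 and rpl32, which is 5 of the 8 genes, against 31.4% of measured probe sets. The 4 small-subunit genes had a median log2 difference of -0.49 in wild type and -0.29 in ku80. The 4 large-subunit genes had medians of -0.33 and -0.62.

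**Figure D2:**
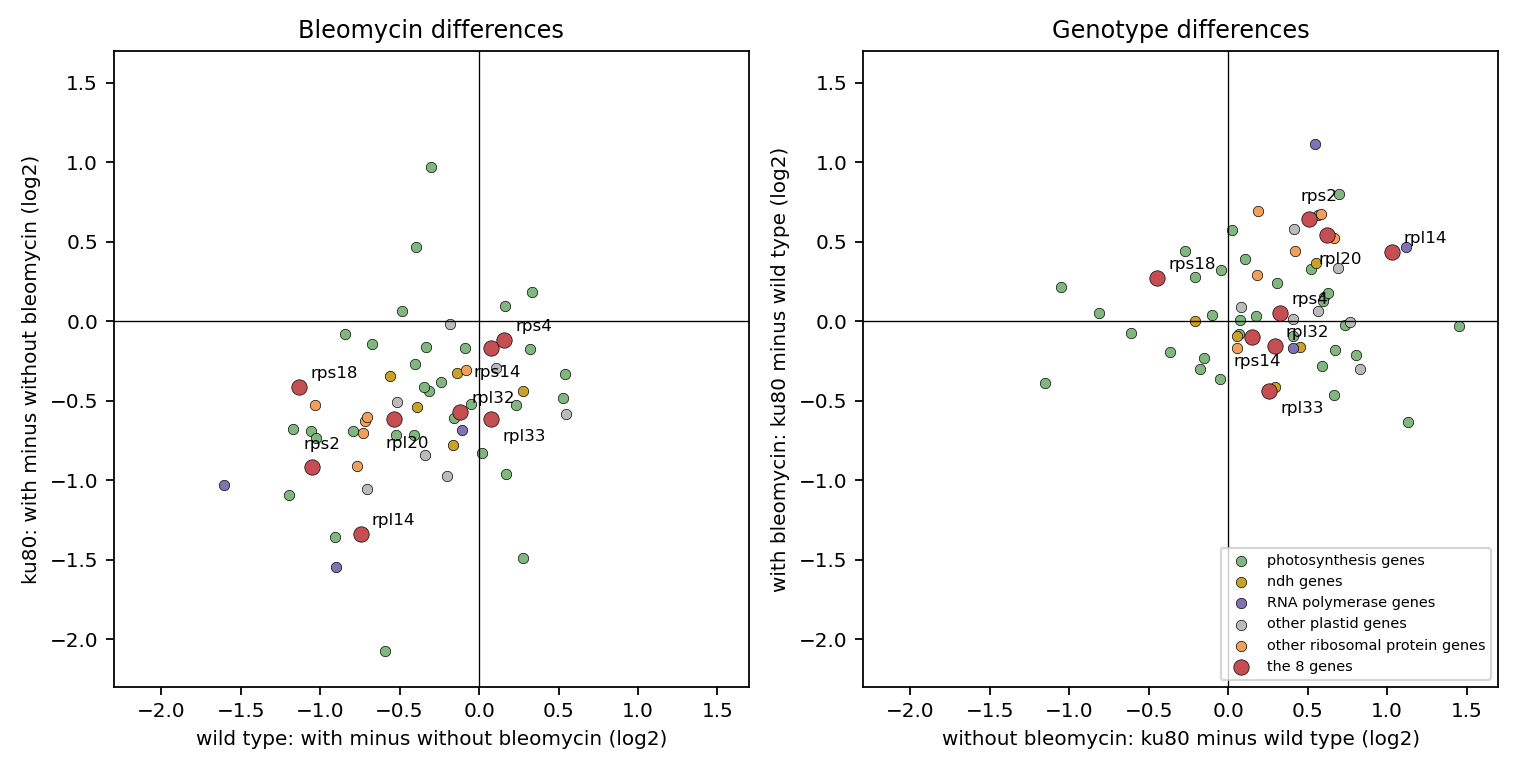
Log2 differences of single arrays for the plastid probe sets, coloured by class, with bleomycin differences in ku80 against wild type on the left and ku80 minus wild type with against without bleomycin on the right. On the left 5 of the 8 ribosomal protein genes lie below 0 in both genotypes, and on the right 4 of the 8 lie above 0 both with and without the drug.

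An additive model with genotype and bleomycin was fitted to all 15334 measured probe sets with limma, and p-values were adjusted by Benjamini-Hochberg over all of them, at a threshold of 0.05. With both factors in the model, a probe set's own spread over these 4 arrays comes only from how far the drug responses of both genotypes lie apart. That spread has 1 degree of freedom. The limma fit combines it with a spread pooled over measured probe sets by brightness, with 15.6 prior degrees of freedom. The SEs and p-values thus rest mostly on the pooled spread, and little on a gene's own agreement between genotypes. For bleomycin 1 of the 8 genes, rpl14, passed the threshold and fell, against 4.57% of all measured probe sets. None of the 8 rose, against 2.19%. The fitted log2 change of rpl14 was -1.04 with an SE of 0.29 and a limma adjusted p of 0.042. That call was lost in 4 of the 8 alternative settings, over which the adjusted p ran from 0.027 to 0.27. For rps2 the fitted difference was -0.98 with an SE of 0.30 and a limma adjusted p of 0.059, and 3 settings brought it past the threshold, with a range of 0.034 to 0.22. The estimates for rps18 and rpl20 were -0.77 and -0.57, with adjusted p-values of 0.12 and 0.24 in limma. The estimates of rpl32, rpl33 and rps14 were -0.34, -0.27 and -0.05, and that of rps4 was 0.02, with adjusted p-values of 0.60 to 0.99 in limma. At an unadjusted p under 0.05, 4 of the 8 genes were lower with bleomycin, against 12.5% of measured probe sets.

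**Figure D3:**
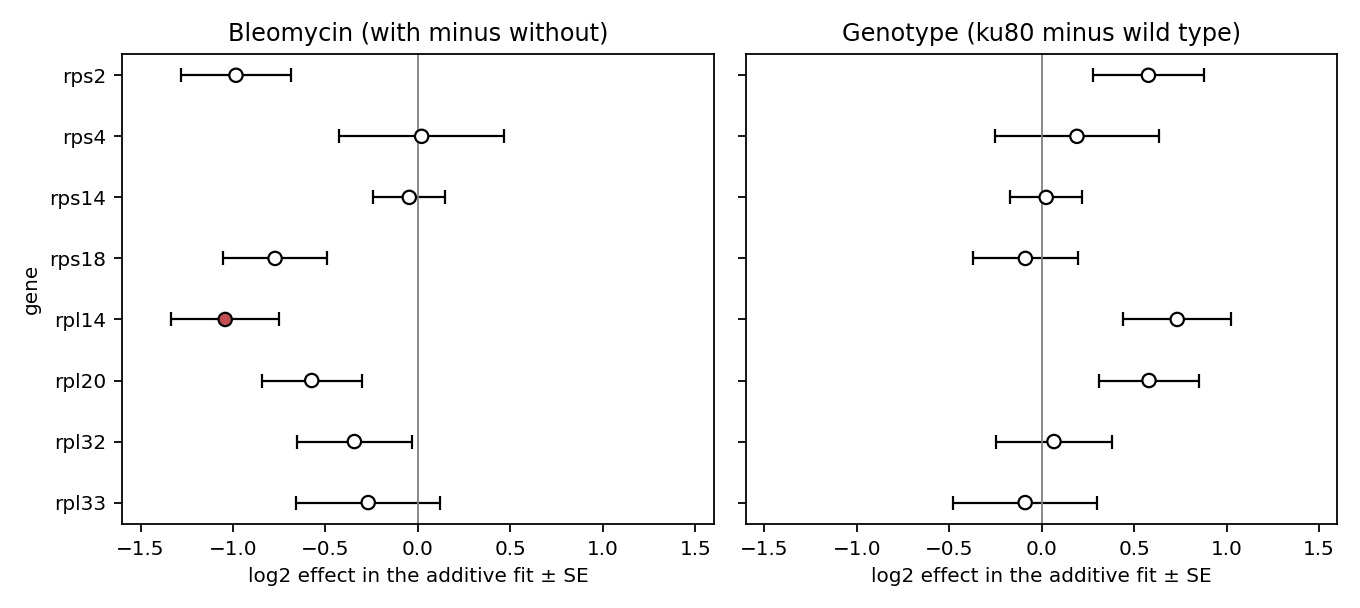
Estimated log2 effects of bleomycin (left) and of ku80 against wild type (right) in the additive limma fit for the 8 genes, with bars of 1 SE. The bleomycin estimates of rpl14 and rps2 lie lowest, at -1.04 and -0.98, and that of rps4 lies at 0.02.

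The second comparison set ku80 against wild type. Untreated, 7 of the 8 genes were higher in ku80, against 45.5% of measured probe sets, and 6 were after quantile normalization. The median log2 difference was 0.31, and 1 gene, rpl14 at 1.03, was at least 2-fold higher, against 2.53% of measured probe sets, with none 2-fold lower, against 2.09%. After quantile and after cyclic loess normalization rpl14 no longer reached 2-fold. With bleomycin 5 of the 8 were higher in ku80, against 45.0%, the median was 0.16 and none reached 2-fold in either direction, against 1.87% higher and 2.35% lower. At 1.5-fold, 2 were higher in untreated ku80, against 7.14%, and 1 in treated ku80, against 9.18%. The log2 differences with bleomycin ran from -0.44 for rpl33 to 0.64 for rps2.

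The genes rps2, rps4, rpl14 and rpl20 were higher in ku80 both without and with the drug, which is 4 of the 8, against 21.3% of measured probe sets, although the untreated sign of rps4 turned after quantile normalization. For rps2 the log2 differences were 0.51 and 0.64, and for rpl20 they were 0.62 and 0.54. In the additive limma fit none of the 8 genes passed the threshold for genotype, against 0.222% of measured probe sets, and the lowest adjusted p was 0.60, for rpl14 at a log2 estimate of 0.73. At an unadjusted p under 0.05 there were 2, rpl14 and rpl20, against 6.91% of measured probe sets. The untreated ku80 array enters both the untreated genotype difference and the ku80 drug difference, so a high value on it moves these in opposite directions.

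The drug difference in ku80 minus that in wild type is a value of 4 single arrays with no test. It was below 0, meaning a more negative drug difference in ku80, for 6 of the 8 genes, against 50.1% of measured probe sets and 30 of the 47 measured plastid genes of other classes in the same probe number range. Its median was -0.26 for the 8 genes and -0.15 for those 47. It was -0.60 for rpl14, -0.69 for rpl33 and -0.45 for rpl32. The opposite was measured for rps18, at 0.72, whose difference with bleomycin was larger in wild type, while rpl20 at -0.08 and rps2 at 0.13 were near 0.

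The 8 genes were also set against plastid genes of other classes. The 47 measured plastid genes in the same probe number range that do not encode ribosomal proteins had median log2 differences with bleomycin of -0.34 in wild type and -0.52 in ku80. The median of the 8 genes relative to these was 0.01 in wild type, with 4 genes on either side, and -0.07 in ku80, with 5 genes below. For ku80 against wild type the 47 had medians of 0.41 untreated and 0.01 with bleomycin, and the 8 genes lay -0.10 and 0.15 from these. With 6 more such genes from outside the range added to the 47, the relative medians were 0.06 and -0.05 for bleomycin in wild type and ku80, and -0.09 and 0.11 for ku80 untreated and treated. The sign of the relative median turned under some settings in wild type, where it ran from -0.21 to 0.15, and in the untreated genotype difference, where it ran from -0.10 to 0.17. In the limma fit 3 of the 47 fell with bleomycin, against 4.57% of all measured probe sets. These were rpoC1 at -1.32, rpoC2 at -1.22 and psbD at -1.33, with limma adjusted p-values of 0.013, 0.020 and 0.047. Of the 6 genes outside the range, ndhE and ndhH also fell. The first 2 of those in the range encode core subunits of the plastid RNA polymerase and psbD encodes the D2 protein of photosystem II. The 13117 probe sets outside the plastid set that lay in the brightness range of the 8 genes had medians of -0.03 and -0.01 with bleomycin in wild type and ku80.

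The 8 genes are not all of the plastid ribosomal protein genes. The other 6 in the same probe number range, which are rpl16, rpl22, rpl36, rps3, rps16 and rps19, were below 0 with bleomycin in both genotypes, with medians of -0.72 in wild type and -0.61 in ku80, and none passed the threshold. Outside the range, rps15 had scaled intensities of 169 in wild type, 97.0 in wild type with bleomycin, 264 in ku80 and 109.6 in ku80 with bleomycin. The arrays stood in the same order as for rps2 and rpl14, and rps15 fell with bleomycin in the limma fit, by 1.04 on the log2 scale with an adjusted p of 0.040. Of these 15 genes together, 12 were below 0 with bleomycin in both genotypes, against 31.4% of measured probe sets. In the limma fit 2 fell, against 4.57%, and 14 were highest on the untreated ku80 array, against 18.1%. The 5 probe sets of rps7, rps12, rpl2 and rpl23, which lie in or reach into the repeated part of the plastid genome, are not among the 15. They had fitted log2 differences of -0.76 to 0.07, and none passed. With bleomycin rpl2 and rps7 were above 0 in wild type, at 0.24 and 0.16, and the other probe sets were below 0 in both genotypes. The highest array was treated wild type for rpl2, untreated wild type for one rps12 probe set, and untreated ku80 for the rest.

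The genes that lie next to each other on the plastid genome did not all have the same values. In the order of the gene table, rpl14 lies in a run of ribosomal protein genes that ends with rpoA, another RNA polymerase core subunit. The 7 genes of that run with a probe set of their own (rps19, rpl22, rps3, rpl16, rpl14, rpl36 and rpoA) were all below 0 with bleomycin, from -1.03 to -0.11 in wild type and from -1.34 to -0.52 in ku80, and rpl14 was the only one that passed in the limma fit. Of all measured probe sets 31.4% were below 0 with bleomycin in both genotypes. All 7 genes of the run were higher in untreated ku80, by 0.18 to 1.03, against 45.5% of measured probe sets. For the gene rpl16, which shares this run, the drug differences were -0.72 and -0.63, so in ku80 rpl14 was the lower of these neighbours and in wild type they were close.

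The gene rps2 lies between atpI, a subunit of the ATP synthase, and rpoC2. With bleomycin atpI had log2 differences of -0.91 in wild type and -1.36 in ku80, and rpoC2 had -0.90 and -1.55, so both neighbours were low on the same arrays as rps2. The atp genes further from rps2, beyond atpI, were nearer to 0. There atpH had -0.34 in wild type and -0.41 in ku80, atpF had -0.49 and 0.06, and atpA had 0.16 and 0.10. The genes rpl33, rps18 and rpl20 are consecutive, and rpl33 and rps18 are read in 1 transcript. In wild type with bleomycin rps18 was at -1.13 while rpl33 was at 0.08, and in ku80 rps18 was at -0.41 while rpl33 was at -0.62. The lower drug difference of this pair was thus that of rps18 in wild type and that of rpl33 in ku80. The gene psaJ, a photosystem I subunit before rpl33, had -0.16 and -0.61, close to rpl33 in ku80. On the other side of this run lies clpP, a protease subunit, next to rpl20 in the order used here, which leaves out rps12. The drug differences of clpP were -0.18 and -0.01, nearer to 0 than those of rpl20 in both genotypes. For rps12, 1 probe set had -0.70 (wild type) and -0.83 (ku80), and the other had -0.67 and -0.60.

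The gene rps4 lies between ycf3, an assembly factor of photosystem I, and ndhJ, a subunit of the NADH dehydrogenase-like complex. With bleomycin ycf3 had log2 differences of -0.70 in wild type and -1.06 in ku80, and ndhJ at -0.17 and -0.78, both more negative than the differences of rps4. On either side of rps14 lie psbZ and psaB, both photosystem genes, with psbZ at -0.52 and -0.72 and psaB at 0.23 and -0.53. The gene rpl32 lies between ndhF and ccsA, a factor for cytochrome c assembly. For ndhF the log2 differences were -0.56 in wild type and -0.35 in ku80, both computed against treated arrays at the floor, and ccsA had log2 differences of 0.54 in wild type but -0.59 in ku80, the latter close to the -0.57 of rpl32.

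**Figure D4:**
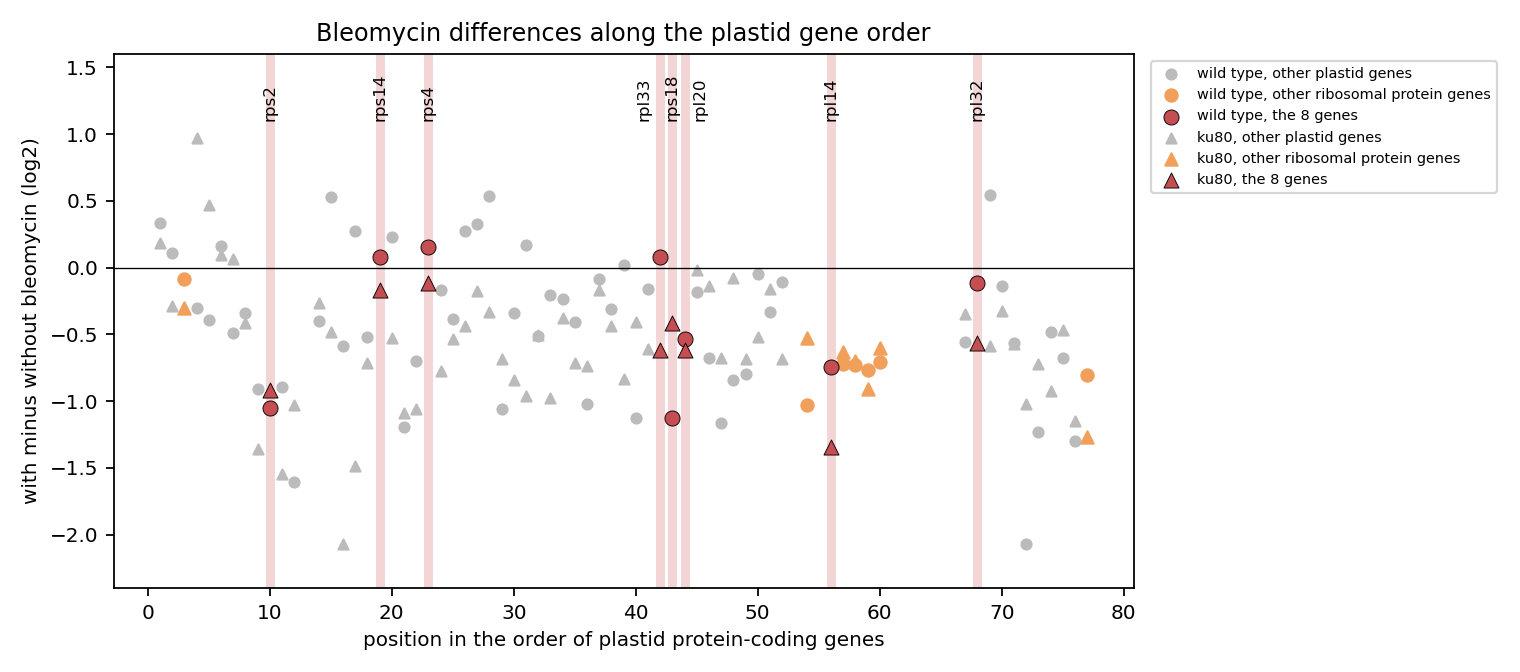
Log2 differences with bleomycin in wild type and ku80 for plastid genes in the order of the gene table, with the 8 genes in red, other ribosomal protein genes in orange and the remaining genes in grey. The run with rpl14 lies below 0 throughout, while rpl33 and rps18, which are consecutive, lie apart in wild type, at 0.08 and -1.13.

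The plastid ribosome also needs nuclear genes, and these had a different pattern over the arrays. Of 39 listed nuclear genes of plastid ribosomal proteins, 9 were named with a probe set of their own in the probe table used, and all 9 were measured. All 9 were below 0 with bleomycin in both genotypes, against 31.4% of measured probe sets. Their median log2 differences were -0.47 in wild type and -1.10 in ku80. In ku80 8 of the 9 were at least 2-fold lower, against 5.61% of measured probe sets. In the limma fit 3 of the 9 fell, against 4.57% of measured probe sets, and none rose, against 2.19%. Those that fell were AT5G47190 at -1.16, AT4G17560 at -1.01 and AT4G01310 at -1.01, with limma adjusted p-values of 0.021, 0.036 and 0.047. The summed scaled intensity of the 9 was 5933 in wild type, 4204 in wild type with bleomycin, 6477 in ku80 and 2937 in ku80 with bleomycin. Untreated, their median difference between ku80 and wild type was 0.11, against 0.31 for the 8 plastid genes, and with bleomycin it was -0.44, against 0.16. With the drug all 9 nuclear genes were lower in ku80 than in wild type, against 48.8% of measured probe sets. Of the 8 plastid genes 5 were higher, against 45.0%. All 7 nuclear photosynthesis genes measured, described below, were also lower in treated ku80 than in treated wild type. These differences between the sets were not tested.

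Among 9 listed plastid translation factors, 2 were named with a probe set of their own, and both were measured. FUG1, a chloroplast initiation factor, had scaled intensities of 396 in wild type, 112 in wild type with bleomycin, 288 in ku80 and 215 in ku80 with bleomycin. Both untreated arrays were above both treated ones, and FUG1 fell in the limma fit, by 1.13 on the log2 scale with an adjusted p of 0.044. The other, AT2G24060, was at -0.62 with a limma adjusted p of 0.32. None of 20 listed plastid transcription factors and polymerase genes of the nucleus was named in the probe table used.

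**Figure D5:**
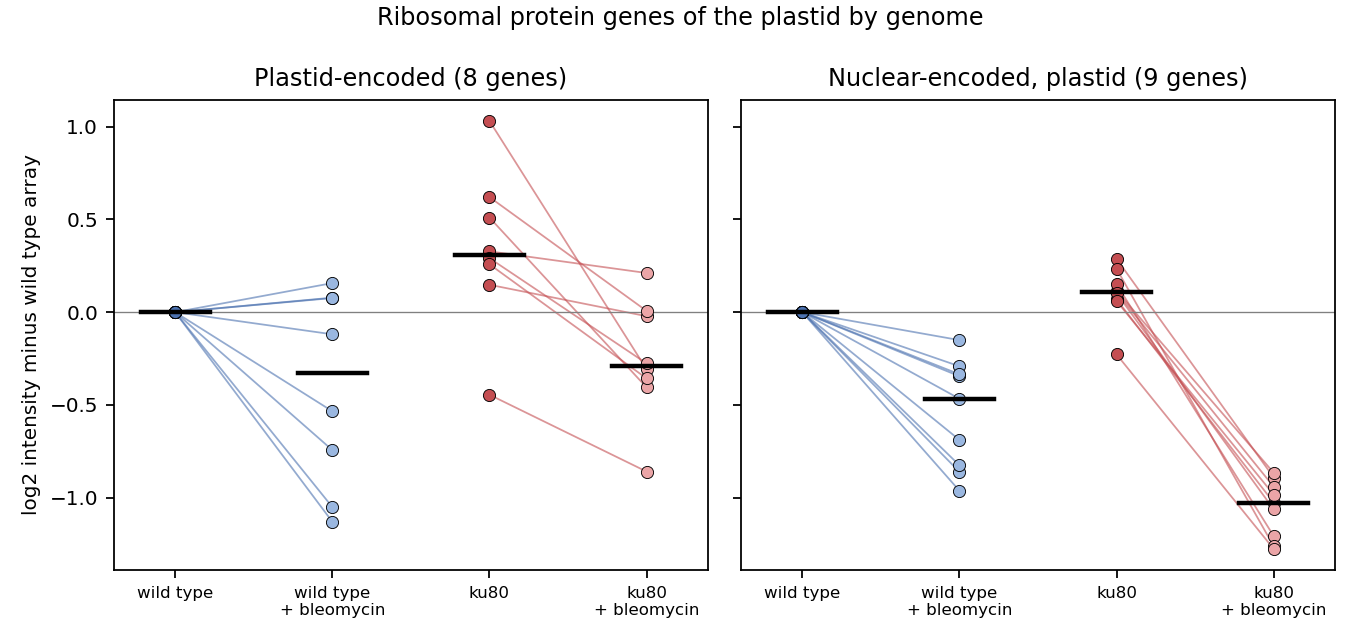
Log2 intensity minus that of the untreated wild type array for the 8 plastid genes and for the 9 nuclear genes of plastid ribosomal proteins. Each line joins the untreated and the treated array of 1 gene within a genotype. All 9 nuclear genes are lowest on the treated ku80 array, while for 4 of the 8 plastid genes the lowest value is in treated wild type.

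Because whole plants were used, genes of green tissue and of roots were read as well. Of 41 listed nuclear photosynthesis genes 7 were named with a probe set of their own, and all 7 were measured. Their summed scaled intensity was 10485 in wild type, 10601 in wild type with bleomycin, 11106 in ku80 and 6943 in ku80 with bleomycin. All 7 were below 0 with bleomycin in ku80, against 48.4% of measured probe sets, and none passed in the limma fit. Their median log2 difference with bleomycin was -0.65 in ku80 and -0.05 in wild type, against -0.59 and -0.33 for the 8 plastid genes. For ku80 against wild type their median was -0.09 untreated and -0.65 with bleomycin, against 0.31 and 0.16 for the 8 plastid genes. Of 13 listed root genes 3 were named with a probe set of their own, and all 3 were measured. Their sum was 1870 in wild type, 2530 in wild type with bleomycin, 1983 in ku80 and 2220 in ku80 with bleomycin. That sum was nearly all PYK10, a root glucosidase, and the root hair expansins EXPA7 and EXPA18 were above the floor on 1 array each. These went in opposite directions in wild type. EXPA18 was above the floor only untreated, at 51.8, with a log2 difference of -0.89 with bleomycin. EXPA7 was above it only with bleomycin, at 32.0, with a log2 difference of 0.19. The green tissue sum was thus low on the treated ku80 array. The root sum, which followed PYK10 and not the root genes as a set, was higher on both treated arrays. The part of either sum in the plastid values was not tested.

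The genes whose pattern over the 4 arrays was most like the mean of the 8 were sought among 6286 probe sets with 1 gene that lay above the floor on all arrays. Likeness was the Euclidean distance between log2 values centred on each gene's own mean over the arrays, so it rests on 4 points. The nearest were AT3G07180 at 0.034, AT1G79030 at 0.078, AT4G38550 at 0.086, bHLH121 at 0.089 and AT5G06560 at 0.099, all nuclear genes. The 8 genes themselves lay 0.28 to 0.75 from their own mean. Of the 20 nearest genes 2 were plastid genes, psaC and atpH, of 58 plastid genes among the candidates.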

How the data were processed

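Per the labels, biotin-labelled cRNA was made from total RNA with an oligo-dT primer and hybridised to ATH1 arrays, 1 per group. The deposited values were linear intensity, 1 for each of 22810 probe sets on every array. Their trimmed mean was 100.01 on each array, so the authors' values were already scaled. The software that summarised the probes and the background correction are not given in the sources used here. Per the labels, mean scanner background was 95.8 in untreated ku80 and 105 to 107 elsewhere.

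After leaving out 64 control probe sets, a scaling factor was taken per array as the median of its ratios to the geometric mean, using the brighter 50% of probe sets. Scaled values were floored at the 40th percentile (28.0) and log2-transformed. Pairwise differences are of single arrays, with no test and with 2-fold as the threshold. R 4.3.3 and limma 3.58.1 served for the additive model, which had an intensity trend, 1 residual and 15.6 prior degrees of freedom, and Benjamini-Hochberg adjustment over 15334 probe sets. Its p-values rest mostly on a spread pooled over probe sets. With 1 pool per group, the spread between plant pools could not be separated from the other differences between arrays. The code was tested on simulated data. The number of arrays limits the precision.

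Gene names came from the platform's probe table and a RefSeq gene table (TAIR10.1): 13513 had 1 gene, of which 13436 matched, 503 had several and 8730 were unnamed here. Named were all 8 genes, the other plastid genes, listed nuclear genes of plastid ribosomal proteins, plastid transcription and translation factors, genes next to the 8 on the plastid genome, green tissue and root genes, and the 5 nearest genes by likeness, and lists are given by count and range. rps15 and the repeat genes were added after the values were seen. The genes and lists were chosen with earlier results of these data known. Other scalings, floors, filters, variance models, fold thresholds and reference sets were tried. Sequences were not used here, and genome coordinates served only to put the plastid genes in order, with rps12 left out of that order.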

Additional observations from a re-analysis of the deposited data

Results flagged for a closer look

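For 5 of the 8 genes a difference had one sign in one group of arrays and the opposite sign in the other, with 1 array behind each value. None of these differences was tested. The bleomycin difference was above 0 in wild type and below 0 in ku80 for rps4, rps14 and rpl33, and the ku80 value minus the wild type value was -0.27, -0.25 and -0.69 on the log2 scale. The difference between ku80 and wild type turned sign between untreated and treated plants for 4 genes. The treated minus the untreated value was -0.25 for rps14, -0.45 for rpl32 and -0.69 for rpl33, which were higher in ku80 without the drug and lower with it, and 0.72 for rps18, which went the other way. Of all measured probe sets 31.2% had opposite drug differences and 43.8% had opposite genotype differences, against 3 and 4 of the 8 genes. The rps14 values lay just above the floor. The opposite drug signs of rpl33 were lost after quantile and after cyclic loess normalization and those of rps4 after cyclic loess, while after quantile normalization both signs of rps4 turned. The opposite genotype signs of rpl32 were lost after quantile normalization, where its treated difference was 0.0080.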

How the results depend on the processing

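No paired analysis was possible because each group had 1 array, and for the same reason no array could be left out. No gene of the 8 had a probe set marked as binding related transcripts, so leaving such probe sets out was not run. The count of the 8 genes that fell with bleomycin was 1, and it was 2 on the deposited scale, after cyclic loess and with all 4 arrays required above the floor (rps2 added), and 0 after quantile normalization, with no floor, with no intensity trend and with genotype left out. In the same fit the fitted value of rps4 turned to -0.080 after quantile and -0.16 after cyclic loess normalization, and that of rps14 to 0.033 after quantile normalization. Over all probe sets, 700 fell and 336 rose with bleomycin: 106 and 75 after quantile normalization, 159 and 79 with no floor, 321 and 145 with no trend, and 0 and 0 with genotype left out (2676 at an unadjusted p under 0.05 in limma), while 455 fell after cyclic loess. For genotype 13 were lower and 21 higher in ku80: 2 and 4 after cyclic loess, 50 and 54 with all 4 arrays above the floor, and 0 and 0 after quantile normalization, with no floor, with no trend and with bleomycin left out (888, 1251, 926 and 289 at an unadjusted p under 0.05 in limma). The number of the 8 genes at least 2-fold higher in untreated ku80 was 1, and 0 after quantile or cyclic loess normalization. At 1.5-fold, 4 genes passed for bleomycin in ku80, 2 for untreated ku80 and 1 for treated ku80 against wild type. At 3-fold, 0 passed for bleomycin in wild type, for bleomycin in ku80 and for untreated ku80. The median of the 8 genes (7 where rps14 dropped out or was left out) kept its sign under the scalings, floors and filters run, from -0.53 to -0.31 for bleomycin in wild type, -0.61 to -0.49 in ku80, 0.14 to 0.33 for untreated and 0.16 to 0.32 for treated ku80 against wild type. With the other 7 plastid ribosomal protein genes added, a choice made after seeing the data, the median for bleomycin in wild type was -0.72. At a floor at the 50th percentile rps14 was no longer measured. The cause of these shifts was not tested. With 1 array per group the spread between pools is unknown, and signal near the floor limits what can be read for rps14.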

Other observations

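Other plastid genes outside the probe number range of the 8 genes included subunits of the NADH dehydrogenase-like complex that fell with bleomycin in the limma fit. These were ndhE, at scaled intensities of 556 in wild type, 132 in wild type with bleomycin, 572 in ku80 and 281 in ku80 with bleomycin, and ndhH, at 68.7, 23.9, 97.6 and 44.0 in the same order. Both were low on both treated arrays, and ndhH lay under the floor in treated wild type. The fitted log2 changes were -1.55 for ndhE and -1.22 for ndhH, with limma adjusted p-values of 0.006 and 0.028. They were named after their values were seen.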
